A study of Homo sapiens with 12 samples.

Results

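The IL-6 family cytokines and their receptors were followed here as 10 transcripts, chosen by gene symbol from a table of 57500 genes: the ligands IL6, IL11, LIF, CLCF1 and CTF1 and the receptor subunits IL6ST, IL6R, IL11RA, LIFR and OSMR. Each symbol occurred once, and all 10 passed the filter on low counts, which left 16251 genes for testing. RNA was sequenced from MRC5, a human fibroblast line from embryonic lung, in 12 libraries, 3 in each of 4 groups. Prol cells were proliferating and untreated. Sen(IR) cells had been made senescent with X-rays. Sen(IR)+UK5099 cells were irradiated and kept in UK5099, an inhibitor of the mitochondrial pyruvate carrier, and Sen(IR)+CTPI2 cells were irradiated and kept in CTPI2, an inhibitor of the mitochondrial citrate carrier SLC25A1. Both inhibitors were added after irradiation, and the sequenced groups hold no proliferating cells with either inhibitor. All libraries come from this 1 line, and the labels do not say whether replicates were separate cultures, so p-values measure the spread between these samples, which may be technical.

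Cytokines of this family signal through gp130, the shared receptor chain encoded by IL6ST. Each ligand first meets its own subunit (IL-6 binds IL6R, IL-11 binds IL11RA) or pairs gp130 with LIFR or OSMR, after which JAK kinases attached to the receptors phosphorylate STAT3. IL-6 is a classical factor of the senescence-associated secretory phenotype, the set of proteins that senescent fibroblasts release, and IL-11 and LIF are also made by fibroblasts.

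Total counts ran from 20597736 to 28245693 per library. The labelled cell type was checked against its markers: the 10 fibroblast markers summed to 25375 to 28836 CPM in Prol and 25930 to 27138 CPM in Sen(IR). With CTPI2 the sum was 23078.5 to 25182.5 CPM, below every Prol and Sen(IR) library. None of the 10 markers was called against Sen(IR), where 0.166% of all genes tested were called. The 2 groups did not overlap for 4 of the 10 markers and for 15.1% of all genes. With UK5099 the sum was 15656 to 16784 CPM. Against Sen(IR), 4 of the 10 markers (COL1A1, COL1A2, COL3A1 and THY1) were called lower, where 12.1% of all genes were. Markers of other cell types had fewer counts but moved with the groups too. The 6 epithelial markers summed to 16.1 to 17.4 CPM with UK5099 and 22.7 to 24.6 CPM with CTPI2. In Sen(IR) they summed to 24.1 to 26.9 CPM and in Prol to 59.2 to 71.8 CPM. Nearly all came from KRT18 and KRT8, while CDH1, KRT5 and SFTPC had at most 5 counts in any library. EPCAM (10 to 31 counts) went the other way, with means of 1.17 CPM with UK5099, 0.713 CPM with CTPI2, 0.739 CPM in Sen(IR) and 0.646 CPM in Prol. The 4 endothelial markers summed to 206 to 236 CPM with UK5099, 299 to 329 CPM with CTPI2, 354 to 366 CPM in Sen(IR) and 154 to 200 CPM in Prol, nearly all from TEK, while PECAM1 and CDH5 had at most 8 counts and VWF at most 27. The 7 leukocyte markers summed to 4.11 to 4.30 CPM with UK5099, 5.33 to 6.93 CPM with CTPI2, 5.20 to 5.61 CPM in Sen(IR) and 1.07 to 1.36 CPM in Prol, led by CD14 (4 to 118 counts) and CD68 (17 to 47), while PTPRC, CD3E, LYZ and ITGAM had at most 8 counts. The share of counts from mitochondrial genes was 3.81 to 4.23% with UK5099, above every other library (2.39 to 3.28% with CTPI2, 2.78 to 3.21% in Sen(IR) and 2.36 to 2.68% in Prol). The part of these shifts in the values below was not tested, and in bulk RNA fewer cells of a type and less RNA per cell cannot be told apart. CPM are counts relative to the total of their library after TMM scaling, so levels are comparable between libraries. CPM were divided by exon length in kilobases (RPKM) wherever levels of different genes are set side by side. This length merges the exons of all annotated transcripts of a gene, so RPKM is too low for a gene whose transcripts are shorter.

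The leading ligand transcript differed between Prol and Sen(IR). IL6 and IL11 moved in opposite directions between these groups, though both were called lower with each inhibitor against Sen(IR). The bases before their start sites are shown as a description, read from RefSeq on GRCh38.p14. For IL6 (plus strand) the window is chr7:22726950-22727146, which lies inside the annotated gene. It falls between the exon of a transcript that starts further upstream and the exon at the RefSeq start, and covers no annotated exon of IL6. For IL11 (minus strand) the window is chr19:55370464-55370713. Exons of other genes were not checked in either window. Capitals mark matches to the consensus motifs of NF-kB, AP-1 (TGANTCA), C/EBP (TTNNGNAA) and STAT factors (TTCNNNGAA), searched on both strands over the 250 bases before the start.
IL6: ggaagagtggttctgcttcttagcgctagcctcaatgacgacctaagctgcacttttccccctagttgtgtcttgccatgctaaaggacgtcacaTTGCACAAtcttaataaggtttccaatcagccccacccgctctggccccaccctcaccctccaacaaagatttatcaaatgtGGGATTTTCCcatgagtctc
IL11: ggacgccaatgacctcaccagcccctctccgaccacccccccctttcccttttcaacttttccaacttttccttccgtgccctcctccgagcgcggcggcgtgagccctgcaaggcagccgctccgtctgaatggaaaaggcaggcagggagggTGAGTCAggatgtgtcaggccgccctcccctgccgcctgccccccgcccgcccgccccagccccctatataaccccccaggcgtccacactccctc
The IL6 window held 1 NF-kB match, starting 73 bases before the RefSeq start, and 1 C/EBP match on the reverse strand, starting 155 bases before it. The IL11 window held 1 AP-1 match, starting 96 bases before the start. Among 35116 RefSeq promoters of the same length, 5.21% held the NF-kB motif, 6.57% the AP-1 motif, 33.2% the C/EBP motif and 6.57% the STAT motif. Of the 10 transcripts, 7 had a promoter in the table; LIF, CLCF1 and CTF1 had no entry. STAT matches occurred in 2 of the LIFR promoters, and C/EBP matches also occurred before IL6R, LIFR and OSMR. A match is a run of letters and does not show binding.

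Whether senescence altered the family was asked by setting Sen(IR) against Prol. Of the 10 transcripts, 6 were called, 4 higher (IL6, LIF, CTF1 and IL6R) and 2 lower (IL11 and CLCF1). A transcript was called at a Benjamini-Hochberg adjusted p under 0.05 over all genes tested in edgeR's quasi-likelihood test, with an absolute log2 fold change over 0.5. By the same rule 47.2% of all genes tested were called, 24.8% higher and 22.4% lower, so a count of 6 in 10 is near the background. The median log2 fold change was 0.22 over the family and 0.01 over all genes. The 2 groups did not overlap for 8 of the 10 transcripts and for 70.9% of all genes.

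IL6 (ENSG00000136244, GRCh38 chromosome 7, 22725884 to 22732002) had 2.39, 2.15 and 3.64 CPM in the Prol libraries and 121, 104 and 115 CPM in the Sen(IR) libraries. The lowest senescent library thus lay far above the highest proliferating one, and the log2 fold change was 5.36 (edgeR adjusted p 1.81e-19, SE 0.130). Of its exon bases, 9.91% are shared with IL6-AS1 and STEAP1B, and since the strand setting of the counting was not given in the sources used here, reads there cannot be told apart.

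IL11 (ENSG00000095752, chromosome 19, 55364382 to 55370463), which encodes a cytokine that acts on fibroblasts and stromal cells, shares no exon base with another gene. It had 118, 97.0 and 118 CPM in Prol and 9.25, 10.1 and 10.8 CPM in Sen(IR). All senescent libraries lay below all proliferating ones, by 3.46 on the log2 scale (log2 fold change −3.46, edgeR adjusted p 3.74e-18, SE 0.101), or 11.0-fold.

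LIF (ENSG00000128342, chromosome 22, 30240453 to 30246759), the leukemia inhibitory factor that signals through LIFR and gp130, had 40.2, 45.7 and 42.7 CPM in Prol. In Sen(IR) it had 247, 239 and 225 CPM, a log2 fold change of 2.47 (edgeR adjusted p 2.89e-19, SE 0.0617). The groups did not overlap, and per length the mean of LIF went from 11.1 to 61.3 RPKM, where that of IL6 went from 0.631 to 26.2 RPKM. CTF1 (ENSG00000150281, chromosome 16, 30896614 to 30903547), which encodes cardiotrophin-1, had 1.96, 2.88 and 2.19 CPM in Prol and 7.30, 7.82 and 6.87 CPM in Sen(IR). Its log2 fold change was 1.65 (edgeR adjusted p 2.98e-09, SE 0.155). CLCF1 (ENSG00000175505, chromosome 11, 67364168 to 67374177), the cardiotrophin-like ligand that acts through the CNTF receptor, had 11.2, 8.41 and 10.4 CPM in Prol and 8.01, 5.55 and 5.44 CPM in Sen(IR). It fell by 0.66 on the log2 scale (edgeR adjusted p 8.36e-04, SE 0.157), with 1 Sen(IR) library close to the lowest Prol library.

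**Figure D1:**
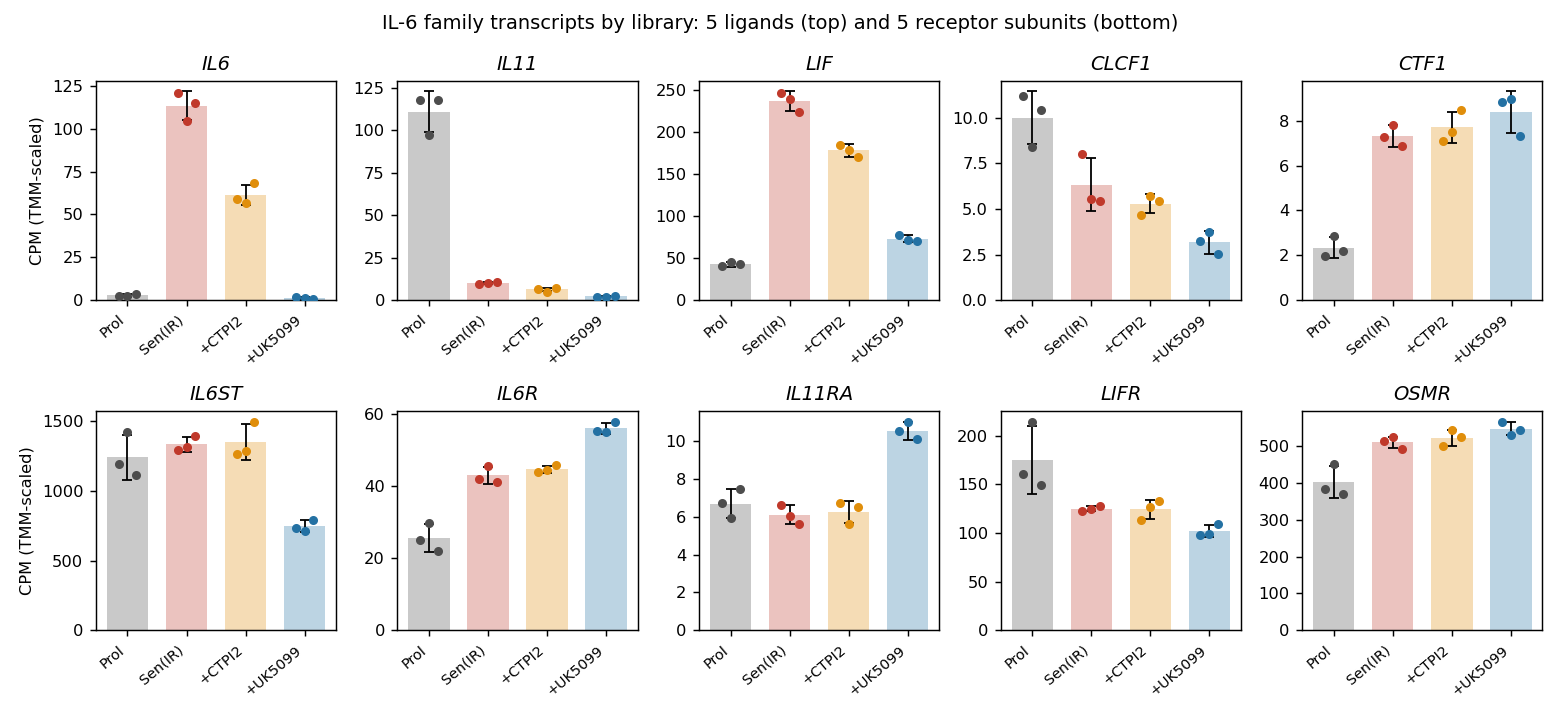
Transcript levels in CPM (TMM-scaled, linear axes from 0) of the 5 ligands and 5 receptor subunits in each of 12 libraries; points are libraries, bars are means and error bars are SD (n = 3). IL6 and LIF were highest in Sen(IR), IL11 and CLCF1 in Prol, and IL6ST lowest with UK5099 (714 to 794 CPM).

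The ligand mixture can be read as each transcript's share of the summed RPKM of the 5 ligands. In Prol, IL11 made up 68.9% ± 2.52 (SD, n = 3) of the sum, LIF 18.6% ± 2.59, CLCF1 9.06% ± 0.713, CTF1 2.41% ± 0.683 and IL6 1.05% ± 0.257. In Sen(IR), LIF made up 61.8% ± 1.43, IL6 26.5% ± 1.53 and IL11 3.80% ± 0.450. On merged exon lengths (3871 bases for LIF, 4321 for IL6), LIF led in every Sen(IR) library, at 61.3 ± 2.99 RPKM against 26.2 ± 1.92 for IL6. The transcripts made may cover fewer of these bases, so the order of LIF and IL6 and their shares are uncertain. The summed ligand level was 60.0 ± 4.44 RPKM in Prol and 99.2 ± 4.41 RPKM in Sen(IR).

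Between these groups 1 of the 5 receptor subunits was called, where 47.2% of all genes tested were. Libraries did not overlap for 3 of the 5 (IL6R, OSMR and LIFR) and for 70.9% of all genes. IL6R (ENSG00000160712, chromosome 1, 154405193 to 154469450), the subunit that binds IL-6, had 25.2, 29.8 and 22.0 CPM in Prol and 42.2, 45.6 and 41.3 CPM in Sen(IR). It rose without overlap by 0.75 on the log2 scale (edgeR adjusted p 3.38e-08, SE 0.0818). IL6ST (ENSG00000134352, chromosome 5, 55935095 to 55995022) had 1191, 1421 and 1111 CPM in Prol and 1293, 1312 and 1391 CPM in Sen(IR), and these ranges overlapped (log2 fold change 0.10, 95% interval −0.05 to 0.26).

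OSMR (ENSG00000145623, chromosome 5, 38845858 to 38945596), the subunit used by oncostatin M, averaged 402 ± 44.1 CPM in Prol and 510 ± 15.6 CPM in Sen(IR). Its groups did not overlap and its edgeR adjusted p was 3.54e-05, but the log2 fold change of 0.34 was under the fold limit. LIFR (ENSG00000113594, chromosome 5, 38474668 to 38608354), which binds LIF and pairs with gp130, had 161, 214 and 150 CPM in Prol and 122, 125 and 128 CPM in Sen(IR). The log2 fold change of −0.49 (edgeR adjusted p 6.68e-05, SE 0.0914) was just short of the fold limit, so LIFR was not called, and it was called without Prol replicate 1 (−0.54), without Prol replicate 3 (−0.59), without Sen(IR) replicate 3 (−0.50) or with only the 2 groups in the fit (−0.50). Without Prol replicate 2, the library at 214 CPM, it was −0.31. IL11RA (ENSG00000137070, chromosome 9, 34652162 to 34661902), the subunit for IL-11, had 6.69 ± 0.755 CPM in Prol and 6.10 ± 0.499 CPM in Sen(IR), with overlapping libraries (log2 fold change −0.13, 95% interval −0.39 to 0.12).

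Per length, the receptor order in Sen(IR) was IL6ST (110 ± 4.31 RPKM), OSMR (71.0 ± 2.17), LIFR (10.3 ± 0.221), IL6R (6.15 ± 0.329) and IL11RA (1.16 ± 0.0949), with no overlap between neighbours. The order in Prol was the same, with IL6ST at 103 ± 13.3 RPKM and IL11RA at 1.27 ± 0.144 RPKM. On merged exon lengths, the shared chain and OSMR thus exceeded the ligand-binding subunits IL6R and IL11RA by more than 10-fold in both groups.

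Whether blocking pyruvate entry into mitochondria altered the family in senescent cells was asked by setting Sen(IR)+UK5099 against Sen(IR). Of the 10 transcripts, 5 were called lower (IL6, IL11, LIF, CLCF1 and IL6ST) and 1 higher (IL11RA). Among all genes tested 20.8% were called, 12.1% lower and 8.76% higher. The median log2 fold change was −0.56 over the family and 0.01 over all genes. The groups did not overlap for 9 of the 10 transcripts and for 56.6% of all genes. This comparison shares its Sen(IR) libraries with the comparison above and with that of CTPI2.

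IL6 had 1.57, 1.11 and 0.814 CPM with UK5099, from 21 to 38 counts per library. Each of these libraries lay below every Prol library, and edgeR gave −6.61 on the log2 scale when set against Sen(IR) (adjusted p 1.31e-19, SE 0.148) and −1.25 against Prol (edgeR adjusted p 5.71e-05, SE 0.235). LIF had 77.7, 71.4 and 71.1 CPM, and differed from Sen(IR) by −1.69 on the log2 scale (edgeR adjusted p 3.66e-16, SE 0.0590). Unlike IL6, LIF stayed above Prol in every library (log2 fold change 0.78, edgeR adjusted p 1.31e-10, SE 0.0615). On the CPM scale the difference between the Prol and Sen(IR) means was cut by 101% for IL6 (101 to 102% over the 3 UK5099 libraries) and by 84.3% for LIF (82.1 to 85.5%).

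IL11, already low in Sen(IR), was lower again with UK5099. It had 2.07, 1.97 and 2.48 CPM, from 50 to 64 counts, all below the Sen(IR) libraries. The log2 fold change was −2.21 against Sen(IR) (edgeR adjusted p 4.52e-11, SE 0.149) and −5.67 against Prol (edgeR adjusted p 1.29e-20, SE 0.123), which is 50.9-fold. UK5099 thus moved IL6 and LIF toward their Prol levels and IL11 further from its own.

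CLCF1 had 3.23, 3.75 and 2.52 CPM with UK5099, also without overlap, and a log2 fold change of −1.003 (edgeR adjusted p 7.96e-05, SE 0.178). CTF1 was the ligand that was not called: it had 8.86, 8.97 and 7.32 CPM with UK5099, overlapping the Sen(IR) range (log2 fold change 0.19, 95% interval −0.08 to 0.47). Its share of the summed ligand RPKM was 19.0% ± 1.33 with UK5099 against 4.50% ± 0.330 in Sen(IR), since the sum itself was 26.9 ± 1.52 RPKM against 99.2 ± 4.41 RPKM. LIF held 70.6% ± 2.06 of the UK5099 sum and IL6 0.995% ± 0.272.

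IL6ST, the shared chain, had 729, 714 and 794 CPM with UK5099. The highest of these lay below the lowest library of every other group, and the log2 fold change was −0.84 against Sen(IR) (edgeR adjusted p 4.87e-09, SE 0.0748) and −0.73 against Prol (edgeR adjusted p 8.52e-09, SE 0.0746). IL11RA moved the other way, with 10.5, 11.0 and 10.1 CPM against 6.63, 6.02 and 5.64 CPM in Sen(IR), a log2 fold change of 0.79 (edgeR adjusted p 1.11e-05, SE 0.119). Of IL11RA's exon bases, 32.8% are shared with CCL27 and a gene known by its identifier, ENSG00000258728, so its counts are uncertain.

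IL6R had 55.4, 55.0 and 58.0 CPM with UK5099, above all Sen(IR) libraries (edgeR adjusted p 3.27e-04), but its log2 fold change of 0.38 was under the fold limit. LIFR had 98.4, 98.6 and 110 CPM, below all Sen(IR) libraries, with a log2 fold change of −0.29 (edgeR adjusted p 0.0140), also under the limit. OSMR had 566, 529 and 544 CPM, with a log2 fold change of 0.10 (95% interval −0.03 to 0.23). Per length, OSMR was above IL6ST with UK5099 (76.2 ± 2.54 against 61.8 ± 3.50 RPKM) in all 3 libraries, whereas IL6ST was above OSMR in all 9 other libraries.

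**Figure D2:**
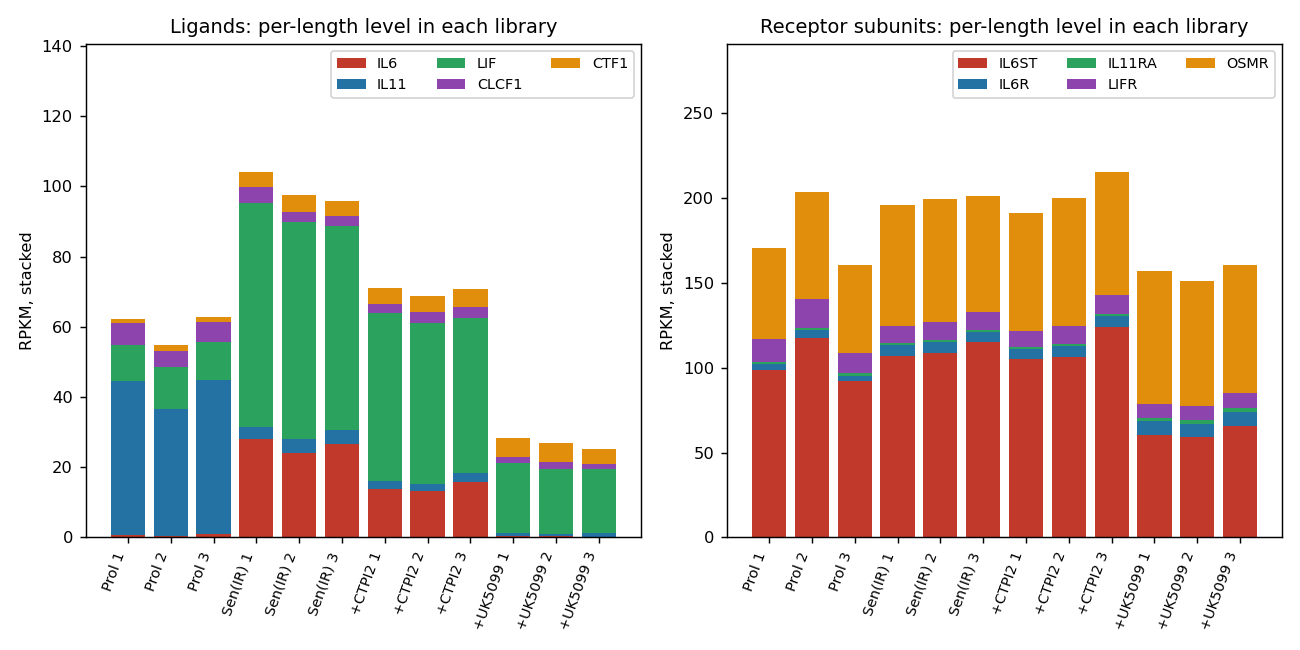
Stacked RPKM (CPM per kilobase of merged exons) of the 5 ligands (left) and 5 receptor subunits (right) in each of the 12 libraries. IL11 fills most of the ligand bar in Prol (68.9%) and LIF in every irradiated group (61.8% in Sen(IR)), and OSMR exceeds IL6ST with UK5099 (76.2 against 61.8 RPKM).

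Whether blocking citrate export altered the family was asked by setting Sen(IR)+CTPI2 against Sen(IR). IL6 and IL11 were called lower and none was called higher, 2 of 10 transcripts where 0.166% of all genes tested (27 genes) were called, 0.148% lower and 0.0185% higher. The median log2 fold change was 0.01 over the family and 0.00 over all genes. The groups did not overlap for 3 transcripts (IL6, IL11 and LIF) and for 15.1% of all genes.

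IL6 had 59.2, 56.9 and 68.1 CPM with CTPI2, all below the Sen(IR) libraries, a log2 fold change of −0.89 (edgeR adjusted p 6.01e-06, SE 0.0911). The difference between its Prol and Sen(IR) means was cut by 47.0% (40.9 to 51.1% over the 3 CTPI2 libraries). IL11 had 6.62, 5.08 and 7.23 CPM, a log2 fold change of −0.67 (edgeR adjusted p 0.00921, SE 0.126). This call rested on single libraries: the edgeR adjusted p was 0.0512 without Sen(IR) replicate 2, 0.0868 without Sen(IR) replicate 3 and 0.119 without Sen(IR)+CTPI2 replicate 2.

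LIF had 185, 179 and 171 CPM with CTPI2, below all Sen(IR) libraries. Its log2 fold change of −0.41 (edgeR adjusted p 3.0e-04, SE 0.0567) was under the fold limit, so it was not called, and the Prol to Sen(IR) difference was cut by 30.2% (26.6 to 34.0%). CLCF1 (log2 fold change −0.27, 95% interval −0.62 to 0.08) and CTF1 (0.07, −0.21 to 0.35) overlapped with Sen(IR). None of the 5 receptor subunits was called in edgeR's test, none had an unadjusted p under 0.05, and DESeq2 called none either. Their log2 fold changes ran from −0.01 for LIFR to 0.06 for IL6R, and the interval for IL6ST was −0.14 to 0.17.

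The inhibitors were also compared with each other, although the dose of CTPI2 in the sequenced libraries is not given in the labels, so doses cannot be matched. In Sen(IR)+UK5099 against Sen(IR)+CTPI2, 5 transcripts were called lower (IL6, IL11, LIF, CLCF1 and IL6ST) and IL11RA higher, where 19.9% of all genes were called, 11.7% lower and 8.2% higher. The groups did not overlap for 8 transcripts and for 53.6% of all genes. IL6 was 52.8-fold lower in the UK5099 libraries (log2 fold change −5.72, edgeR adjusted p 4.02e-18, SE 0.152). For IL11 the log2 fold change was −1.53 (edgeR adjusted p 5.97e-08, SE 0.159), for LIF −1.28 (edgeR adjusted p 6.22e-14, SE 0.0588) and for IL6ST −0.85 (edgeR adjusted p 3.91e-09, SE 0.0748). CTF1 (0.12, 95% interval −0.14 to 0.39) and OSMR (0.07, −0.06 to 0.19) were not called.

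**Figure D3:**
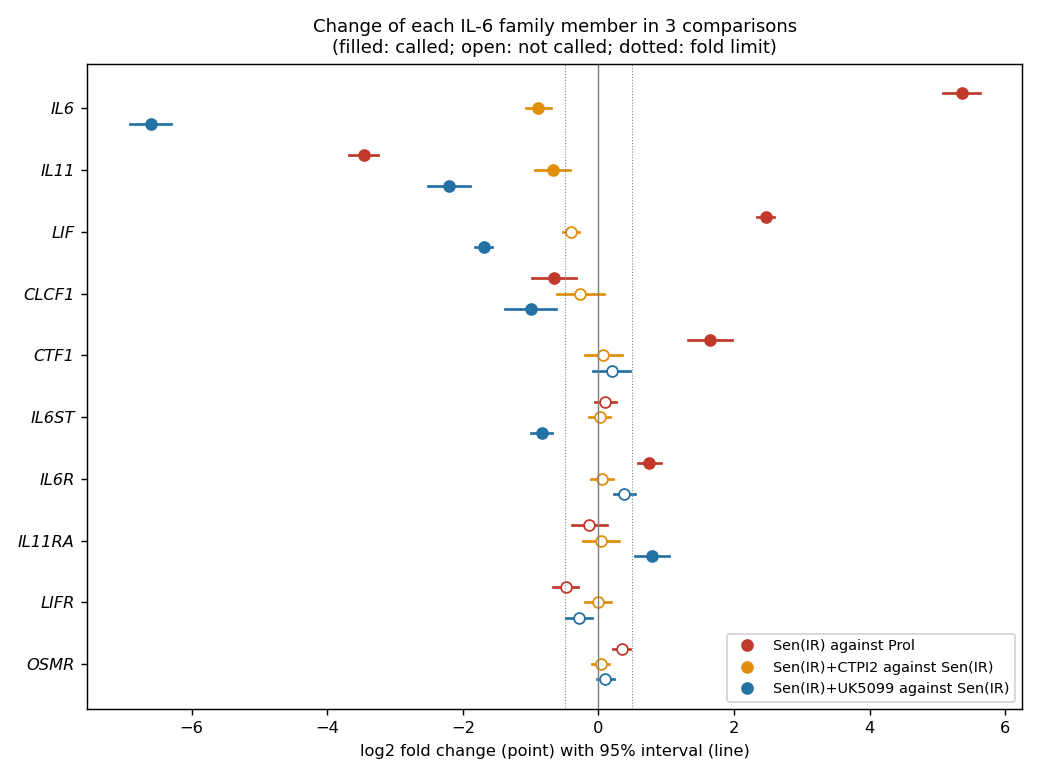
Log2 fold changes (points) with 95% intervals (lines) of the 10 transcripts in Sen(IR) against Prol, Sen(IR)+CTPI2 against Sen(IR) and Sen(IR)+UK5099 against Sen(IR), with called changes filled and the fold limit of 0.5 dotted. IL6 ran from 5.36 after irradiation to −6.61 with UK5099, and IL11 was below 0 in all 3 comparisons.

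Against proliferating cells, 9 of the 10 transcripts were called with UK5099, 4 higher (LIF, CTF1, IL6R and IL11RA) and 5 lower (IL6, IL11, CLCF1, IL6ST and LIFR), where 53.1% of all genes were called, 26.9% higher and 26.2% lower. All 10 were without overlap, as were 74.5% of all genes. OSMR, at a log2 fold change of 0.44, was under the fold limit and was called without Prol replicate 2 (0.54). LIFR was at −0.77 (edgeR adjusted p 9.95e-08, SE 0.0917) and IL6R at 1.13 (edgeR adjusted p 1.81e-11, SE 0.0801). With CTPI2, 6 were called against Prol (IL6, LIF, CTF1 and IL6R higher, IL11 and CLCF1 lower), where 46.8% of all genes were called, 24.8% higher and 21.9% lower. The groups did not overlap for 8 transcripts and for 70.1% of all genes. LIFR, at −0.49, was again just under the limit and was called without Prol replicate 1 (−0.55), Prol replicate 3 (−0.59), Sen(IR)+CTPI2 replicate 2 (−0.50) or Sen(IR)+CTPI2 replicate 3 (−0.55), and was −0.32 without Prol replicate 2.

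The other lists below are to be read against the share of all genes tested that was called: 47.2% in Sen(IR) against Prol (24.8% higher, 22.4% lower) and 20.8% in Sen(IR)+UK5099 against Sen(IR) (8.76% higher, 12.1% lower). Other ligands and receptors of the IL-6 and IL-12 families were mostly scarce. Of 12, 6 were not tested, among them OSM, the ligand of OSMR, with 0 to 4 counts per library, and CNTFR, the receptor part used by CLCF1, with 0 to 7. Of the 6 tested, 3 were called higher (IL12A, IL27RA and EBI3) and 2 lower, CNTF among them, in Sen(IR) against Prol. IL12A, a subunit of IL-12 and IL-35, was at 7.17 ± 0.338 CPM in Prol and 20.2 ± 0.342 CPM in Sen(IR). UK5099 lowered 3 of the 6 (IL12A, IL31RA and EBI3, the last with at most 3 counts in any UK5099 library) and raised none (median log2 fold change −0.66). IL12A was at 11.0 ± 0.646 CPM (−0.87, edgeR adjusted p 1.44e-08, SE 0.0833).

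Of 12 genes that relay the gp130 signal, 3 were called higher, STAT3 and SHC1 among them, and 1 lower (STAT5B) in Sen(IR) against Prol (median −0.02), a smaller share than the 47.2% of all genes. STAT3, the main effector of the family, rose by 0.53 on the log2 scale (edgeR adjusted p 1.54e-07, SE 0.0644), from 180 ± 22.6 to 260 ± 5.60 CPM. STAT5B fell by 0.72. UK5099 raised 2 of the 12 and lowered none (median 0.17), where 20.8% of all genes were called, 8.76% higher and 12.1% lower. GAB1, a docking protein below gp130, went from 19.3 ± 1.33 to 41.2 ± 5.13 CPM (1.09, edgeR adjusted p 1.47e-09). SOS1, which activates RAS, rose by 0.54 (edgeR adjusted p 5.30e-07). Leaving out UK5099 replicate 3 left 1 of these calls.

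Of 9 feedback inhibitors, 8 were tested. In Sen(IR) 3 were lower than in Prol and none higher (median −0.48), where 47.2% of all genes were called, 24.8% higher and 22.4% lower. SOCS3, which is induced by STAT3 and blocks gp130, fell to 24.6 ± 1.49 CPM from 52.7 ± 9.76 CPM in Prol (−1.10, edgeR adjusted p 7.28e-10, SE 0.0951). SOCS2 fell by 1.05 and SOCS1 by 0.60. Without Sen(IR) replicate 3 the count was 5. UK5099 lowered SOCS2 alone of the 8 (−0.59, SE 0.134, edgeR adjusted p 0.00106; median −0.02).

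A list of 24 genes known as STAT3 targets had 20 tested. In Sen(IR) against Prol 9 were higher and 4 lower (median 0.36), where 24.8% of all genes were higher and 22.4% lower, with ICAM1, an adhesion molecule, at 2.26 (edgeR adjusted p 4.91e-19, SE 0.0584) and BIRC5, survivin, which also acts in mitosis, at −3.94 (edgeR adjusted p 1.37e-18, SE 0.109). With UK5099 12 of the 20 were lower than in Sen(IR) and none higher, against 12.1% lower among all genes, and the median was −1.11 against 0.01 over all genes. ICAM1 went from 304 ± 3.23 to 17.2 ± 1.94 CPM (−4.15, edgeR adjusted p 2.64e-22, SE 0.0660), BIRC5 from 11.2 ± 0.705 to 0.846 ± 0.424 CPM (−3.70, edgeR adjusted p 7.49e-13, SE 0.197), and SAA2, an acute-phase gene with a near-identical copy in SAA1, had no count with UK5099 and was at least 7.50-fold lower against the mean floor of 3 counts per library. The acute-phase gene LBP was at −3.12 (edgeR adjusted p 1.11e-06, SE 0.398). It had 2 to 10 counts per UK5099 library and 35 to 48 per Sen(IR) library, so this fold rests on few counts. Several of the 12, ICAM1 and IER3 among them, are also known targets of NF-kB.

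Receptor shedding releases soluble IL6R from the cell surface. Of 5 genes of this process, 3 were higher in Sen(IR) than in Prol and none lower (median 0.65), where 24.8% of all genes were higher and 22.4% lower: ADAM17, the protease that cleaves IL6R, rose by 0.94 (edgeR adjusted p 1.18e-11, SE 0.0642), and its partners RHBDF1 and RHBDF2 rose by 0.65 and 2.53. The count was 5 under upper-quartile scaling. UK5099 lowered RHBDF2 from 12.7 ± 0.558 to 3.53 ± 0.220 CPM (−1.85, edgeR adjusted p 1.06e-11, SE 0.115) and TIMP3, an inhibitor of ADAM17, from 560 ± 8.37 to 150 ± 4.67 CPM (−1.90, edgeR adjusted p 5.22e-19, SE 0.0460), and the median of the 5 was −0.33.

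Of 9 genes for proteins that bind and control the turnover of IL6 mRNA and similar messages, 1 was higher (ZC3H12A) and 3 lower (HNRNPD, ELAVL1 and ZFP36) in Sen(IR) than in Prol (median −0.17), near the 47.2% of all genes called. ZC3H12A (Regnase-1), an RNase that degrades IL6 mRNA, averaged 4.32 ± 0.570 CPM in proliferating cells and 28.5 ± 1.12 CPM after irradiation, and UK5099 took it to 3.78 ± 0.343 CPM (−2.91, SE 0.104, edgeR adjusted p 6.40e-16). The other 3 called with UK5099 were higher. ZFP36 (tristetraprolin), which promotes decay of AU-rich messages, rose by 0.97 (edgeR adjusted p 9.71e-09, SE 0.0904), its relative ZFP36L2 by 0.62, and ARID5A, which stabilises IL6 mRNA, by 0.97 (edgeR adjusted p 5.79e-06, SE 0.139). The median of the 9 was −0.02.

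With CTPI2, edgeR called none of the genes of these 6 lists against Sen(IR), and DESeq2 called none. Among all genes tested 0.166% were called, so the absence of calls in these lists is near the background. The share of all genes with an unadjusted p under 0.05 is not reported here, so the next counts have no background beside them. An unadjusted p under 0.05 was reached by 0 of 6 other family genes, 1 of 12 relay genes, 2 of 8 feedback inhibitors, 2 of 20 STAT3 targets, 2 of 5 shedding genes and 2 of 9 turnover genes. The list medians ran from −0.14 for shedding to 0.07 for the other family genes.

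**Figure D4:**
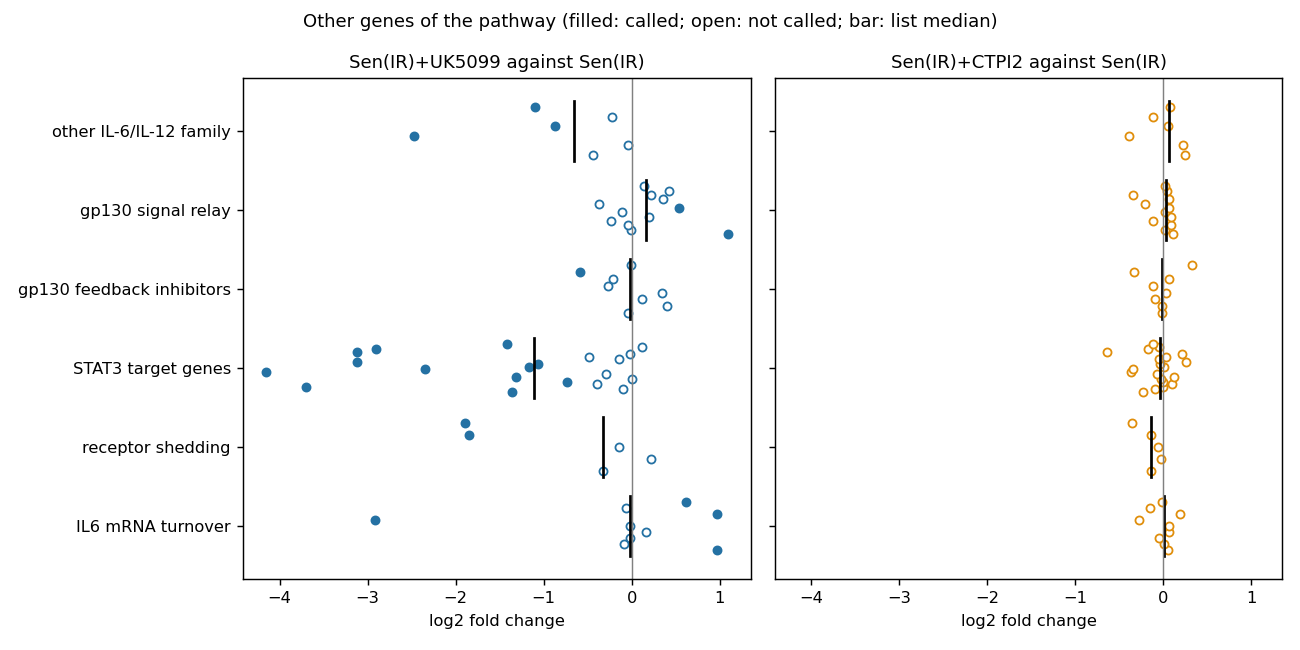
Log2 fold changes of the tested genes in 6 lists in Sen(IR)+UK5099 against Sen(IR) (left) and Sen(IR)+CTPI2 against Sen(IR) (right), on the same axis, with called genes filled, list medians as bars and genes at or under 3 counts in a group drawn at their bound. With UK5099 12 of 20 STAT3 targets were called lower, against 12.1% of all genes. With CTPI2 0 were called, against 0.166% of all genes.

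The genes whose log2 CPM were most like those of each ligand over the 12 libraries are given as a description, since 4 group means set most of such a correlation. For IL6 they were CXCL8 (Pearson r 0.996), a neutrophil chemokine, STC2 (0.995) and CLDN1 (0.995). IL11 was closest to ESCO2 (0.998), a cohesin acetyltransferase of dividing cells, SFXN1 (0.996), a mitochondrial serine transporter, and SLC7A1 (0.996), a transporter of cationic amino acids. For LIF they were SLC11A2 (0.998), an iron transporter, PDIA5 (0.997) and HSD17B2 (0.997). CLCF1 was closest to ERCC1 (0.982), and CTF1 to CYTL1 (0.993) and GAA (0.993), the lysosomal glucosidase.

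Among receptors, IL6ST was closest to NCK1 (0.989) and HGF (0.978), the hepatocyte growth factor, whose mean was 859 CPM in Sen(IR) libraries and 257 CPM in those with UK5099. IL6R was closest to ZFP90 (0.996), IL11RA to CAMKK1 (0.964), LIFR to EBF3 (0.978) and OSMR to DENND4A (0.989) and LAMA4 (0.984), a laminin chain.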

How the data were processed

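RNA from MRC5 cells was sequenced in 12 libraries. According to the methods and processing notes, the authors used Trimmomatic 0.36 for trimming, STAR 2.5.2b for alignment to GRCh38 and featureCounts (Subread 1.5.2) to count uniquely mapped exon reads per gene. The deposited values are these raw counts, with no normalization; the strand setting is not given in the sources used here. Counts were tested in R 4.3.3 with edgeR 4.0.16 (filterByExpr, TMM, glmQLFit, glmQLFTest) in 1 fit of all 12 libraries, with Benjamini-Hochberg adjustment over 16251 genes. The SE is the absolute log2 fold change over the square root of F. Alternatives were DESeq2 1.42.0, upper-quartile and RLE scaling, omitting the filter, only the 2 groups, a replicate block, an unadjusted p, a fold limit of 1 and leaving out each library. On simulated data for Sen(IR) against Prol (15363 genes), edgeR recovered 98 of 100 genes changed by 1 log2 unit and 100 of 100 changed by 2, with 7 false calls. The simulation changed only well-counted genes, gave every gene the same dispersion and changed far fewer genes than were called in the data. Its rates therefore do not carry over to transcripts with few counts.

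Exon lengths, positions and overlaps came from GENCODE v44, promoters from RefSeq (GRCh38.p14). The 10 transcripts and the other lists were chosen with earlier results of these data known. Named genes were the 10, up to 4 of the largest called changes per list and comparison, and the 3 genes most alike each transcript by Pearson correlation of log2 CPM, some of which are left out of the text; the values of some genes of the lists are not reported here. Counting floors (3 counts) cover counting error only. Within groups, chi-square per gene between library pairs was 2.28 to 13.6, where sampling noise alone gives about 1, so no pair was counted as 1 sample.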

Additional observations from a re-analysis of the deposited data

How the results depend on the processing

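Of 840 log2 fold changes of single transcripts under the alternatives, 804 kept their direction and side of the limits. A fold limit of 1 gave 0 calls for CTPI2 against Sen(IR), 3 for UK5099 against CTPI2 and 5 for UK5099 against Prol, and in Sen(IR) against Prol it took the relay list from 4 calls to 1, shedding from 3 to 1 and turnover from 4 to 2. With UK5099 against Sen(IR) it took relay from 2 to 1, feedback from 1 to 0 and turnover from 4 to 1. Leaving out 1 library gave 1 to 2 calls for CTPI2 against Sen(IR). Values under the limits changed sign for IL11RA in CTPI2 against Prol (0.015 with upper-quartile scaling). They also did so for 4 transcripts in CTPI2 against Sen(IR) on leaving out 1 library. IL6ST ran from −0.062 to 0.061, IL11RA from −0.014 to 0.11, LIFR from −0.056 to 0.055 and CTF1 from −0.0028 to 0.13. The cause was not tested. Upper-quartile scaling moved the median of all genes to 0.13 in Sen(IR) against Prol, 0.15 in UK5099 against Prol and 0.12 in CTPI2 against Prol, and OSMR was then called in UK5099 against Prol (0.58).

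Replicate numbers did not pair the libraries: same-numbered libraries of different groups had correlations of deviations from −0.051 to 0.042, and 6 of 12 libraries were closest to one with their own number. With the replicate block the counts of calls were 6, 6, 2, 6, 9 and 6 in the order of comparisons given above, as without it. Depth limits the transcripts near 1 CPM most, such as IL6 with UK5099 (21 to 38 counts).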

Other observations

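Among the 10 transcripts, log2 CPM over the 12 libraries correlated most strongly, in either direction, between IL11 and IL6R (Pearson r −0.973), then between IL6ST and IL11RA (−0.962) and between IL6R and OSMR (0.962). The correlation was 0.904 for IL6 with LIF and −0.076 for IL6 with IL11. These values are a description over libraries that share 4 group means.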
